A study of Homo sapiens with 6 samples.

Results

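The genes described here are 10 genes of the hypoxia response, taken by symbol from a table of 29489 genes. They are the hypoxia-inducible factor subunits HIF1A and ARNT, the oxygen sensing genes VHL, EGLN1 and EGLN3, and the hypoxia targets P4HA1, DDIT4, ANKRD37, KDM3A and VEGFA, none of them a glycolytic enzyme. Values were found for 9 of the 10, and EGLN3 was not analysed here.

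Poly(A) RNA was sequenced from the human B-lymphoma line SU-DHL-4, long established in culture from a diffuse large B-cell lymphoma, in a group labelled CON and a group labelled KD. The labels give no treatment, time or oxygen tension and do not say which gene KD refers to; the title of the series is about ZHX2, a zinc finger and homeobox protein, in protection from ferroptosis. Both groups are the same line, and nothing in the labels says that libraries came from separate cultures or clones, so the p-values here reflect spread among these libraries alone, which may be technical. The values are FPKM, a fragment count scaled by transcript length and library total, so levels can be compared between genes but the number of reads behind each is unknown.

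Each group has 3 labelled samples, of which replicates 2 and 3 were used (n = 2 per group). The columns of replicate 1 could be computed from the other two. In KD, dividing the mean of replicates 2 and 3 by 1.2 gave replicate 1 for 29489 of 29489 genes, while in CON the divisor was 1.1 and the match held in 29488 (relative tolerance 1e-09). ZHX2 was the gene that departed in CON. Its FPKM were 38.5 and 36.7 in CON against 10.96 and 11.04 in KD, and its fold change in the authors' deposited table, -4.62, is negative and so cannot be a ratio of such values. ZHX2 was for that reason given no weight as a test of the group labels. Mitochondrial genes, those with an MT- name, took 25.9% and 25.6% of all FPKM in CON libraries, and 29.9% and 30.3% in KD libraries. Of 11916 genes tested with limma, 58.6% passed an adjusted p of 0.05, 27.6% higher and 31.1% lower in KD, and the median log2 change was -0.02. A call is thus common in this comparison, and sizes are given beside calls throughout.

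In cells with enough oxygen, EGLN enzymes hydroxylate the alpha subunit of HIF on prolines, the VHL protein binds the hydroxylated subunit, and a ubiquitin ligase built around VHL sends it to the proteasome. When oxygen is short the alpha subunit escapes, pairs with ARNT and switches on its target genes through sites with the core motif ACGTG or GCGTG. This control acts on the HIF1A protein, which was not measured here; the values below are RNA levels.

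All 9 genes differed between the groups, 7 higher and 2 lower in KD, by limma at an adjusted p of 0.05. Among all tested genes, 27.6% were higher and 31.1% lower at that threshold. ANKRD37, among the 7 higher, was tested only through KD, the group in which it is high. In all 9 the CON and KD libraries did not overlap, as was so for 81.6% of tested genes. P4HA1 rose 3.82-fold and KDM3A 2.53-fold, ANKRD37 stood 2.73-fold higher at a low level, and VEGFA rose 1.44-fold. HIF1A, EGLN1 and ARNT were higher by 1.22-fold, 1.24-fold and 1.145-fold. VHL fell 1.71-fold and DDIT4 1.16-fold, so the genes did not move as a block. The log2(FPKM + 1) scale of the test understates changes of low genes. On it, P4HA1 and KDM3A, 2 of the 9, were called higher with a log2 change of at least 1. Both conditions were met by 2.91% of tested genes. With a pseudocount of 0.1 or 0.5 in place of 1, ANKRD37 joined P4HA1 and KDM3A and the count was 3. Both conditions were then met by 4.72% and 3.77% of tested genes. A log2 change under 0.5 in size was seen for 5 of the 9. The members were chosen with earlier results of these data known, so these counts are a description. In bulk RNA, a lower level in every cell and fewer cells with the RNA cannot be told apart. The exact permutation test of 2 libraries against 2, two-sided, gave p = 0.333 for each of the 9 genes, the smallest it allows.

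The HIF core motif was looked for in the 250 bases before the annotated start of 7 of these genes, from RefSeq promoter windows of build GRCh38.p14. Letters ACGTG or GCGTG were searched on both strands, and a CACGTG palindrome, which holds ACGTG on each strand, was counted as 1 site. At least 1 window with a site was found for 6 of the 7, the exception being ARNT. A site was held by 43.2% of 35116 windows of all genes and 56.7% of 12026 windows of genes tested here. Those shares count single windows, while the 6 of 7 counts genes with a site in any window, so they are not like for like. Stretches of 30 bases around the sites are shown on the strand of the gene, 5′ to 3′, with the motif in capitals, because they place the letters that HIF is known to bind beside genes that moved in both directions. A match is a description of the letters and not a bound site.
P4HA1, chr10:73096936-73096965, minus strand: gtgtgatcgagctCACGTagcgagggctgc
KDM3A, chr2:86441332-86441361, plus strand: tccgggaggctgtGCGTGtcttgtgagagc
ANKRD37, distal site, chr4:185396667-185396696, plus strand: ggcgccgggctcCACGTGccagtgtttgtg
ANKRD37, proximal site, chr4:185396685-185396714, plus strand: ccagtgtttgtgtACGTGcggccgtggcgg
EGLN1, chr1:231422288-231422317, minus strand: ccgcggggccgtggtgtACGTGcagagcgc
HIF1A, chr14:61695296-61695325, plus strand: ttggctgagagcgGCGTGggctggggtggg
DDIT4, distal site, chr10:72273692-72273721, plus strand: ttccagaaaggggGCGTGgcggtgggtcgg
DDIT4, middle site, chr10:72273786-72273815, plus strand: gagaacgttgcttACGTGcgcccggagtcc
DDIT4, proximal site, chr10:72273858-72273887, plus strand: tggcgcagagaagGCGTGgcctcgccgcgc
The motif of P4HA1 began 86 bases before the start. KDM3A and HIF1A each have 2 annotated starts: the motif of KDM3A began 26 bases before one and 116 bases before the other, and the second window of HIF1A held no site. In the first window of HIF1A the motif began 204 bases before the start, and those of ANKRD37 began 162 and 143 bases before it. DDIT4, which fell, held 3 sites, more than any of the 5 rising genes that held one. DDIT4 was the only falling gene with a window. Several of these windows overlap exons of longer transcripts in GENCODE 29, among them all 250 bases of the ANKRD37 and EGLN1 windows.

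**Figure D1:**
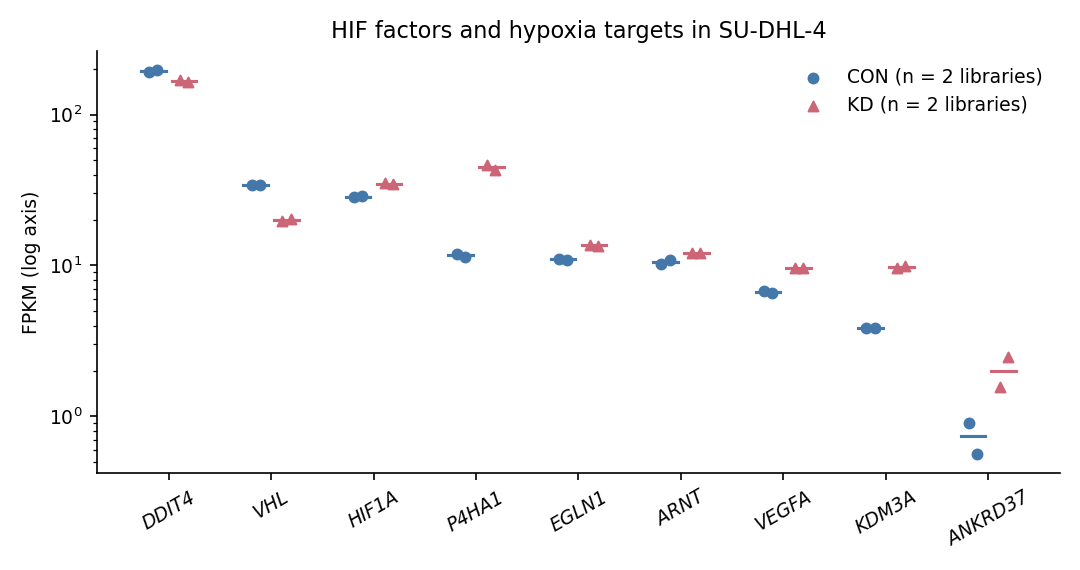
FPKM of the 9 genes on a log axis, in order of their CON level, with CON libraries as circles, KD libraries as triangles and short lines at the group means (n = 2). P4HA1 rose from a mean of 11.7 to 44.6 FPKM and passed both HIF1A and VHL, and ANKRD37 was the lowest gene in both groups.

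HIF1A encodes the oxygen-regulated alpha subunit that gives the factor its name (ENSG00000100644, GRCh38 chromosome 14, 61695513 to 61748259). Levels were 28.3 and 28.8 FPKM in CON against 34.9 and 34.9 FPKM in KD. The KD libraries were both above the CON libraries and had an SD of 0.0315 FPKM (n = 2). The log2 change was 0.28 (SE 0.0302, limma adjusted p = 0.00175), the 2613th largest among 5667 rises. The other alpha subunits were barely present in these cells: EPAS1, which encodes HIF-2 alpha, was listed at 0 to 0.0237 FPKM and HIF3A at 0 to 0.00709 FPKM. HIF1A was thus the alpha subunit gene with appreciable RNA in both groups. The antisense gene HIF1A-AS3, which lies across HIF1A on the other strand with no shared exon bases in GENCODE 29, was at 0.0661 to 0.239 FPKM in the 4 libraries. AL137129.1, a processed transcript on the same strand, shares 148 exon bases with HIF1A and was not analysed here. Reads of HIF1A and AL137129.1 may not have been told apart.

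ARNT encodes the constant beta subunit, with which HIF1A must pair to bind DNA (ENSG00000143437, chromosome 1, 150809705 to 150876768). CON libraries held 10.3 and 10.9 FPKM, KD libraries 12.1 and 12.1 FPKM. The groups did not overlap, though the CON libraries were 0.453 FPKM apart as an SD. The log2 change of 0.18 (SE 0.0472, limma adjusted p = 0.0264) was the smallest of the 9. The ARNT call was lost without CON replicate 2 (adjusted p = 0.132), KD replicate 2 (0.0788) or KD replicate 3 (0.0804) and with no filter on low values (0.0634). With a library left out, 1 group holds a single library, which is then assumed to vary like the other group. Among related bHLH-PAS factors, AHR, the dioxin receptor that also pairs with ARNT, rose from 2.46 to 5.43 FPKM (limma adjusted p = 5.72e-04, log2 change 0.89). NPAS1, a neuronal factor of the same family, averaged 2.10 FPKM in CON libraries, 1.76 FPKM in KD libraries, and did not pass the test (log2 change -0.17). ARNT per HIF1A within a library was 0.363 and 0.378 in CON and 0.347 and 0.347 in KD.

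VHL encodes the subunit that recognises hydroxylated HIF alpha (ENSG00000134086, chromosome 3, 10141008 to 10152220). Levels were 34.0 and 34.0 FPKM in CON against 19.7 and 20.2 FPKM in KD. Both KD libraries were far below the CON libraries, and the spread within either group was at most 0.354 FPKM (SD, n = 2). VHL fell by 0.74 on the log2 scale (SE 0.0326, limma adjusted p = 1.87e-04), the largest fall of the 9 genes. Ratios within a library, chosen after the values were seen, do not depend on how libraries were scaled. VHL per HIF1A was 1.20 and 1.18 in CON and 0.563 and 0.578 in KD, and P4HA1 per VHL was 0.351 and 0.336 in CON and 2.36 and 2.12 in KD. VHL RNA was above HIF1A RNA in both CON libraries and below it in both KD libraries.

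VHL works inside a ligase, and its partners did not all move with it. ELOB, an elongin subunit of this ligase, fell from 17.1 to 10.8 FPKM (log2 change -0.62, SE 0.0386, limma adjusted p = 4.14e-04). RBX1, the RING subunit that recruits the ubiquitin-conjugating enzyme, fell from 14.4 to 8.74 FPKM (log2 change -0.67, SE 0.0873, limma adjusted p = 0.00309). ELOC, the other elongin subunit, stood at 2.72 and 3.23 FPKM in CON and KD (log2 change 0.18, SE 0.0966), and CUL2, the cullin scaffold, at 3.57 and 3.61 FPKM (log2 change 0.01, SE 0.0679); neither passed the test. Elongins and RBX1 also serve other complexes, so their levels are not those of the VHL ligase alone.

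EGLN1 encodes PHD2, the prolyl hydroxylase that is the main oxygen sensor for HIF1A in most cells (ENSG00000135766, chromosome 1, 231363751 to 231425044). CON libraries held 11.1 and 10.9 FPKM, KD libraries 13.8 and 13.4 FPKM. The KD libraries were both higher, by a log2 change of 0.28 (SE 0.0412, limma adjusted p = 0.00418). EGLN1 and HIF1A moved by almost the same amount, and EGLN1 per HIF1A was 0.392 and 0.377 in CON and 0.394 and 0.384 in KD, values that overlap. EGLN2, which encodes the hydroxylase PHD1, held 9.79 and 8.68 FPKM in CON against 9.02 and 8.99 FPKM in KD (log2 change -0.03, SE 0.0658). HIF1AN, which encodes the asparagine hydroxylase FIH that blocks coactivator binding, held 4.27 and 4.48 FPKM in CON against 4.43 and 4.18 FPKM in KD (log2 change -0.02, SE 0.0623). The groups overlapped for both genes and neither passed the test, and the sign of each turned under 2 or more of the alternative settings. EGLN2 shares 2012 exon bases on the same strand with the readthrough gene RAB4B-EGLN2, which fell from 2.16 and 4.24 FPKM in CON to 0.345 and 0.306 FPKM in KD, so the split of reads between the 2 genes is uncertain.

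Across the list of oxygen sensing and VHL ligase genes, 12 genes other than the 9 were tested. Of these, 1 was higher, 4 were lower and 7 were not called, beside 27.6% higher and 31.1% lower among all tested genes. The median log2 change of the 12 was -0.02, and that of all tested genes was also -0.02. The one that rose was WSB1, a SOCS-box protein that is itself a hypoxia target, from 10.4 and 10.8 FPKM in CON to 29.5 and 29.5 FPKM in KD (limma adjusted p = 5.39e-05, log2 change 1.39). Besides ELOB and RBX1, the genes that fell were OS9 and SIAH1 (log2 changes -0.17 and -0.36), both named after their values were seen. Their calls were lost in 4 of 14 and 4 of 13 alternative settings, among them the fits without KD replicate 2 or CON replicate 3.

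Among the target genes, P4HA1 changed most. It encodes the catalytic alpha subunit of collagen prolyl 4-hydroxylase, an oxygen-dependent enzyme of the endoplasmic reticulum (ENSG00000122884, chromosome 10, 73007217 to 73096974). Levels were 11.9 and 11.45 FPKM in CON against 46.4 and 42.9 FPKM in KD. The KD libraries were 2.47 FPKM apart as an SD, small beside a difference between means of 11.7 and 44.6 FPKM. The log2 change was 1.85 (SE 0.0507, limma adjusted p = 5.37e-05), the 90th largest among 5667 genes that were higher in KD. The other 2 alpha subunit genes were near 0, P4HA2 at 0.0299 to 0.16 FPKM and P4HA3 at 0 to 0.0361 FPKM. P4HB, the beta subunit that is also protein disulfide isomerase, held 23.6 and 24.8 FPKM in CON against 23.0 and 23.0 FPKM in KD and did not pass the test (log2 change -0.07, SE 0.0385). P4HA1 per P4HB was therefore 0.505 and 0.461 in CON and 2.02 and 1.86 in KD.

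Of 7 other tested genes for collagen hydroxylases and their partners, 4 were higher and 2 lower in KD, beside 27.6% and 31.1% of all tested genes. The higher calls of PLOD3 and P3H1 were lost in each of the 4 fits with a library left out, and that of P3H4 without CON replicate 2, without KD replicate 3 and with no filter. PLOD1, a lysyl hydroxylase that is also a hypoxia target, rose from 8.48 to 17.1 FPKM (limma adjusted p = 5.72e-04, log2 change 0.93). LOXL2, a lysyl oxidase that is not a hydroxylase, fell from 2.39 to 0.889 FPKM (limma adjusted p = 0.00372, log2 change -0.84). LOXL2 reached 1 FPKM in CON libraries alone and so was tested only through the group in which it is high. CRTAP, a partner of prolyl 3-hydroxylase, fell by a log2 change of -0.17, a call lost without either CON library.

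KDM3A encodes an oxygen-dependent demethylase of lysine 9 of histone H3 and is a known HIF target (ENSG00000115548, chromosome 2, 86440647 to 86492716). CON libraries held 3.85 and 3.86 FPKM, KD libraries 9.57 and 9.92 FPKM. The CON libraries were nearly equal and both KD libraries were far above them. The log2 change was 1.15 (SE 0.0508, limma adjusted p = 1.91e-04). Its relatives differed from it: KDM3B, at 18.0 and 17.7 FPKM in CON and 15.8 and 16.3 FPKM in KD, had a log2 change of -0.15, a call lost in 5 of 14 alternative settings, among them the fits without CON replicate 2, CON replicate 3 or KD replicate 2. JMJD1C, at 10.5 and 10.9 FPKM in CON and 11.8 and 13.9 FPKM in KD, did not pass the test (limma adjusted p = 0.0585). KDM3A per KDM3B was 0.214 and 0.217 in CON and 0.604 and 0.61 in KD.

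Of 14 other tested genes for JmjC oxygenases, 4 were higher and 3 lower, close to the 27.6% higher among all tested genes and below the 31.1% lower, with a median log2 change of 0.13. The higher call of KDM4B was lost without either CON library, and the lower call of KDM5C without CON replicate 3 or KD replicate 3. KDM2A, an H3K36 demethylase, rose from 11.9 to 18.0 FPKM (limma adjusted p = 4.96e-04, log2 change 0.57), and JMJD6, a lysyl hydroxylase, from 3.30 to 6.55 FPKM (limma adjusted p = 0.00115, log2 change 0.81). KDM4A fell from 24.6 to 18.5 FPKM (limma adjusted p = 0.00417, log2 change -0.39), named after its value was seen.

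ANKRD37, a small ankyrin repeat protein whose gene is a HIF1 target, was the gene with the least RNA (ENSG00000186352, chromosome 4, 185396021 to 185400628). Levels were 0.91 and 0.565 FPKM in CON against 1.56 and 2.46 FPKM in KD. The groups did not overlap, but the KD libraries differed from each other by more than the CON libraries did. It reached 1 FPKM in KD libraries alone and so was tested only through the group in which it is high. The log2 change was 0.78 (SE 0.19, limma adjusted p = 0.0208), and 1.33 with a pseudocount of 0.1 in place of 1. The ANKRD37 call was lost without CON replicate 3 (adjusted p = 0.0809) or KD replicate 3 (0.0659) and with no filter on low values (0.106). ANKRD37 shares 909 exon bases with UFSP2 on the opposite strand. UFSP2, a protease of the UFM1 pathway, held 4.95 and 4.42 FPKM in CON against 6.15 and 8.11 FPKM in KD, so both genes were highest in KD replicate 3. The strand setting used in counting is not given, and reads of the 2 genes may not have been told apart. ANKRD37 per UFSP2 was 0.184 and 0.128 in CON and 0.254 and 0.304 in KD.

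VEGFA encodes the secreted growth factor that drives the growth of blood vessels (ENSG00000112715, chromosome 6, 43770184 to 43786487). CON libraries held 6.75 and 6.61 FPKM, KD libraries 9.66 and 9.64 FPKM. Both KD libraries were above both CON libraries, by a log2 change of 0.47 (SE 0.0451, limma adjusted p = 0.00126). VEGFB, another ligand of the family, held 27.3 and 27.5 FPKM in CON against 31.8 and 28.8 FPKM in KD and did not pass the test (log2 change 0.14, SE 0.0544). VEGFA per VEGFB was 0.247 and 0.24 in CON and 0.304 and 0.335 in KD. Placental growth factor, PGF, was at 0.0572 to 0.257 FPKM, the receptor FLT4 at 0 to 0.0166 FPKM and the coreceptor NRP2 at 0.226 to 0.511 FPKM. The receptors FLT1 and KDR, the coreceptor NRP1 and the ligands VEGFC and VEGFD were not analysed here.

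DDIT4 encodes REDD1, which holds back mTORC1 through the TSC complex and responds to hypoxia and to several other stresses, ATF4 signalling among them (ENSG00000168209, chromosome 10, 72273920 to 72276036). Levels were 192 and 198 FPKM in CON against 170 and 165 FPKM in KD, the most abundant of the 9 genes in both groups. Both KD libraries were below both CON libraries, and DDIT4 fell by 0.22 on the log2 scale (SE 0.0269, limma adjusted p = 0.00257). The antisense gene DDIT4-AS1, which shares 847 exon bases with DDIT4, was not analysed here, and reads of the pair may not have been told apart; shorter antisense overlaps lie on HIF1A (117 bases), VEGFA (188) and P4HA1 (47). DDIT4 went the opposite way to the targets P4HA1, KDM3A, ANKRD37 and VEGFA. Among all tested genes, 31.1% were lower and 27.6% higher in KD. In the list of ATF4 targets, 18 of 19 tested genes were lower in KD and 1, DDIT3, was higher, with a median log2 change of -0.75. Tryptophanyl-tRNA synthetase WARS1 (log2 change -2.85), the pseudokinase TRIB3 (-2.17) and the amino acid transporter SLC7A5 (-1.29) were among them (limma adjusted p of 5.56e-06, 1.60e-05 and 1.57e-05). The part of ATF4 in the level of DDIT4 was not tested.

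Among 12 other tested genes around mTORC1 restraint, 3 were higher, 5 lower and 4 not called, beside 27.6% higher and 31.1% lower among all tested genes, with a median log2 change of -0.09. The call of TSC1 was lost in 6 of 13 alternative settings, each fit with a library left out among them, that of CASTOR1 in 7 of 13 and that of SESN2 in 7 of 14. The call of TSC2 was lost without CON replicate 2. TXNIP, which binds DDIT4 protein and thioredoxin, fell from 40.8 to 19.9 FPKM (limma adjusted p = 2.14e-04, log2 change -1.01). SESN3, a sestrin that restrains mTORC1, rose from 7.77 to 14.99 FPKM (limma adjusted p = 7.61e-04, log2 change 0.86). RHEB, which activates mTORC1 and so is the target of this restraint, rose from 15.9 to 21.5 FPKM (limma adjusted p = 0.00555, log2 change 0.42). RHEB was named after its value was seen.

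**Figure D2:**
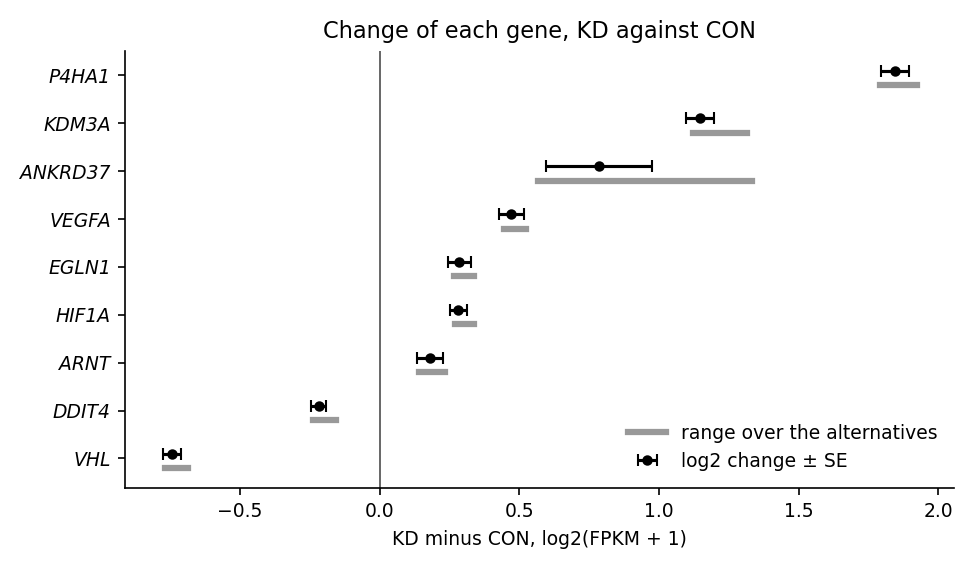
Log2 change of each of the 9 genes, KD minus CON on the log2(FPKM + 1) scale, with its SE (black) and the range over the alternative settings (grey). No range crosses 0, and ANKRD37 has the widest, from 0.57 to 1.33.

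The order of the levels changed between the groups. In CON it ran from DDIT4 (195 FPKM) through VHL (34.0), HIF1A (28.6), P4HA1 (11.7), EGLN1 (10.98), ARNT (10.6), VEGFA (6.68) and KDM3A (3.85) to ANKRD37 (0.737). EGLN1 and ARNT overlapped between libraries in CON and so were not separated there, while all other neighbours were. In KD it ran from DDIT4 (167 FPKM) through P4HA1 (44.6), HIF1A (34.9), VHL (19.9), EGLN1 (13.6), ARNT (12.1), KDM3A (9.74) and VEGFA (9.65) to ANKRD37 (2.01). KDM3A and VEGFA overlapped in KD. P4HA1 moved from the fourth place to the second and VHL from the second to the fourth.

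**Figure D3:**
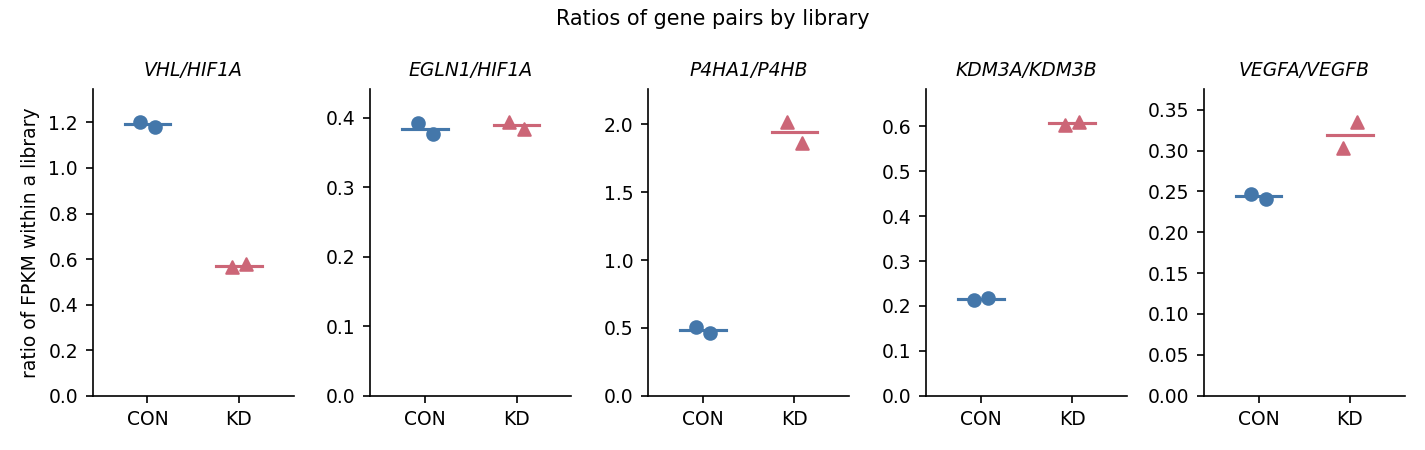
Ratio of FPKM of pairs of genes within each library, for CON (circles) and KD (triangles), with lines at the group means (n = 2) and every axis starting at 0. Mean VHL per HIF1A was 1.19 in CON and 0.571 in KD, and mean P4HA1 per P4HB was 0.483 and 1.94, while EGLN1 per HIF1A overlapped between the groups.

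Other hypoxia targets outside glycolysis mostly rose. The list held 35 genes, of which 27 had values and 18 passed the filter on low values; 13 of these were higher in KD, 2 lower and 3 not called, against 27.6% higher and 31.1% lower among all tested genes. Their median log2 change was 0.65 after the filter and 0.24 over the 27 with no filter, and 9 of the 27 were under 1 FPKM in all 4 libraries. BNIP3, a mitophagy receptor, rose from 12.3 and 13.0 FPKM to 54.8 and 54.8 FPKM (limma adjusted p = 1.86e-05, log2 change 2.03). HILPDA, which promotes lipid storage, rose from 5.52 and 5.55 FPKM to 18.9 and 19.8 FPKM (limma adjusted p = 5.62e-05, log2 change 1.64). BNIP3L rose by a log2 change of 1.10, and CITED2, which competes with HIF1A for its coactivator, rose from 5.79 to 18.7 FPKM (limma adjusted p = 2.15e-04, log2 change 1.54).

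The targets that were not called higher were named after their values were seen. TXNIP fell, as given above, and VLDLR, a lipoprotein receptor, had a log2 change of -0.21, a call lost in 8 of 13 alternative settings, among them each fit with 1 library left out. ERO1A, an oxidase of the endoplasmic reticulum, held 13.0 and 11.6 FPKM in CON against 13.2 and 14.0 FPKM in KD. INSIG2, a regulator of sterol synthesis, held 8.33 and 8.12 FPKM in CON against 8.52 and 8.26 FPKM in KD, and KDM4C at 5.25 and 5.42 FPKM in CON and 5.96 and 6.25 FPKM in KD. None of the 3 passed the test, at limma adjusted p of 0.134, 0.676 and 0.0506. Both KD libraries were nonetheless above both CON libraries for ERO1A and KDM4C. The groups did not overlap in 81.6% of tested genes. NDRG1, among the targets called higher (log2 change 0.64, limma adjusted p = 0.00623), was tested only through KD. It held 0.421 and 0.428 FPKM in CON and 1.19 and 1.24 FPKM in KD. BHLHE40 was listed at 0 in both CON libraries, against 0.637 and 0.742 FPKM in KD. ADM, CA9, EPO and the other targets of the list without values were not analysed here.

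Glycolytic targets of HIF, for comparison, were higher in 16 and lower in 1 of 19 tested genes, beside 27.6% and 31.1% of all tested genes. The median log2 change of the 19 was 0.62. ALDOC rose by 1.52, ENO1 by 1.496, PFKFB3 by 1.34 and PGK1 by 1.07 on the log2 scale (limma adjusted p of 3.28e-05, 1.62e-05, 4.22e-05 and 4.22e-05). The largest rise in the list was that of PFKFB4, by 1.69 on the log2 scale, and smaller ones included GAPDH and PKM (0.45 each), ENO2 (0.34) and PGAM1 (0.22). GPI (-0.03) and PFKL were not called, and TPI1 was lower (-0.19), a call lost with quantile scaling; these genes were named after their values were seen. Of the 9 genes described here, P4HA1 alone, at 1.85, changed by more than PFKFB4 on this scale, which understates changes of low genes. By fold of mean FPKM, PFKFB4 rose more, 4.38-fold from 1.91 FPKM in CON, against 3.82-fold for P4HA1 from 11.7 FPKM.

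**Figure D4:**
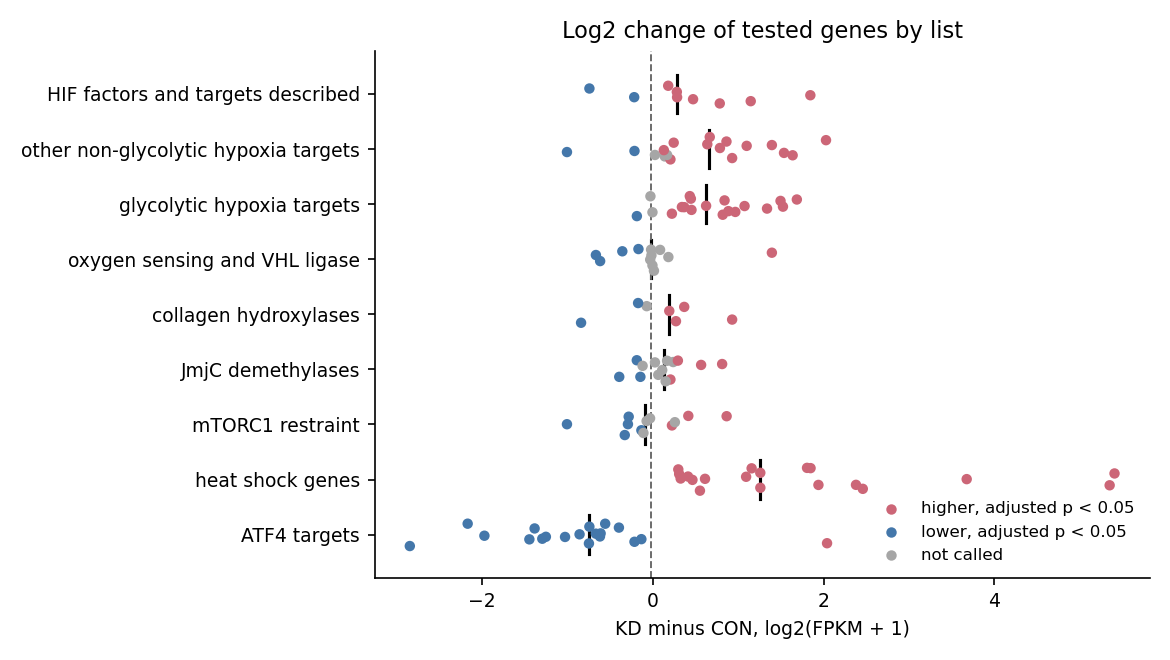
Log2 change of every tested gene of 9 lists, KD minus CON on the log2(FPKM + 1) scale, coloured by call, with a black bar at each list's median and a dashed line at the median of all tested genes. Genes of the top row are left out of the other rows; both lists of other hypoxia targets lie mostly to the right, oxygen sensing genes lie around 0, and heat shock genes and ATF4 targets lie to either side.

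Other programs moved with the hypoxia targets in the same libraries. Among all tested genes, 27.6% were higher and 31.1% lower in KD. Of 19 tested heat shock genes, 19 were higher in KD, with a median log2 change of 1.26. HSPB1 among the 19 was tested only through KD, and the median of the other 18 was also 1.26. Of 14 tested immediate early genes, 13 were higher and 1 lower, with a median log2 change of 2.52. FOS, FOSB and EGR1 were tested only through KD, and the median of the other 11 was 2.09. The chaperone HSP90AA1, which holds HIF1A protein among many clients, rose from 66.3 and 66.4 FPKM to 254 and 261 FPKM, and HSP90AB1 from 229 to 550 FPKM (limma adjusted p of 9.78e-06 and 1.86e-05). HSP90AA1, HSP90AB1 and CITED2 belong to a list of HIF coactivators and modulators with 12 tested genes. In that list 4 genes were higher, 5 lower and 3 not called, with a median log2 change of 0.06. EIF4EBP1, among the 5 lower, went from 164 FPKM in CON to 79.1 FPKM in KD (log2 change -1.05). The early transcription factor JUN rose from 1.16 and 1.06 FPKM to 184 and 181 FPKM. The part of these programs, or of the higher mitochondrial share, in the levels of the hypoxia genes was not tested.

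Marker genes of the line and of other cell types were read in the same libraries. All 9 B cell markers were tested, and 2 were higher, 3 lower and 4 not called in KD. Among all tested genes, 27.6% were higher and 31.1% lower. The summed level of the 9 was 817 and 827 FPKM in CON and 634 and 646 FPKM in KD. MS4A1, the gene of CD20, was at 86.4 and 120 FPKM and CD79A at 375 and 203 FPKM in CON and KD. The summed level of 6 T and NK cell markers was 1.34 to 1.84 FPKM in CON and 0.994 to 1.06 FPKM in KD, that of 4 myeloid markers 0.0502 to 0.0542 and 0.467 to 0.523 FPKM, and that of 4 endothelial markers 0.446 to 0.501 and 0.823 to 1.01 FPKM. NKG7, the only T and NK cell marker tested, held 1.26 and 1.63 FPKM in CON against 0.896 and 0.728 FPKM in KD. It was tested only through CON. Of the endothelial markers, PECAM1 was at 0 to 0.0409 FPKM, VWF at 0 to 0.00659 FPKM and CLDN5 at 0.0742 to 0.193 FPKM. ESAM held 0.206 and 0.427 FPKM in CON against 0.697 and 0.888 FPKM in KD, so the higher sum in KD was that of ESAM. The summed level of 6 epithelial and fibroblast markers was 6.47 to 6.69 FPKM in CON and 7.17 to 7.69 FPKM in KD, but its tested members moved in opposite directions. DCN fell from 3.44 to 1.88 FPKM, TAGLN rose from 1.71 to 2.94 FPKM and LUM rose from 1.35 to 2.38 FPKM (limma adjusted p of 0.00385, 0.00979 and 0.0217), and the call of LUM was lost in 4 of 13 alternative settings, among them the fits without CON replicate 2, KD replicate 2 or KD replicate 3. The part of these markers in the levels of the hypoxia genes was not tested. ESAM, CLDN5, TAGLN and LUM, like TSC1, CASTOR1, SESN2, PLOD3, P3H1, P3H4, KDM4B and HSPB1 above, were named after their values were seen.

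The genes whose pattern over the 4 libraries was most like that of HIF1A and P4HA1 were read by the Euclidean distance of log2(FPKM + 1) after each gene's CON mean was taken off. For HIF1A they were TTLL4, THY1 and CCT6A, at distances of 0.0047, 0.00969 and 0.0158. For P4HA1 they were EIF5, NEU1 and DNAJA1, at 0.0686, 0.0783 and 0.0801. THY1 is a low gene, at 0.939 and 0.961 FPKM in CON and 1.38 and 1.36 FPKM in KD. It was tested only through KD and was not called (limma adjusted p = 0.0524). A pattern over 4 libraries in 2 groups holds little beyond the size of the change.

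In the authors' deposited table, P4HA1, KDM3A and ANKRD37 of the 9 genes are marked as significant, with log2 fold changes of 1.93, 1.34 and 1.45. The authors' deposited table gives VHL a log2 fold change of -0.77 and VEGFA one of 0.53, with q-values of 2.74e-114 and 2.64e-50, without that mark. These folds in the authors' deposited table come from the same replicates without a pseudocount, so they lend no independent weight to the directions above.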

How the data were processed

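The authors deposited a table of FPKM per gene and sample, per the file headers, beside their own comparison of KD with CON, given as fold, log2 fold, p-value and q-value. Tools named in the submitters' processing notes are edgeR, StringTie, HISAT2 and fastp, with build GRCh38. For the annotation release and counting strand, the sources used here give nothing. Second strands were marked with dUTP, per the labels' protocols. FPKM are scaled by library total, so abundant genes that rise lower all others. Low values showed no steps of whole reads, with at most 30 of 4038 low genes sharing a ratio, so depth is unknown and no count model was fitted.

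Testing used genes that reached 1 FPKM in 2 or more of the 4 libraries, on log2(FPKM + 1) with limma 3.58.1 (R 4.3.3), with a mean-variance trend, group as the only term, two-sided, and Benjamini-Hochberg adjustment at 0.05 over 11916 genes. The residual degrees of freedom were 2. This scale understates changes of low genes. In 10 simulations with normal noise, 200 of 11916 genes were changed by 1.5-fold or 2-fold on the log2(FPKM + 1) scale. Of these changes, 80.1% at 1.5-fold and 96.6% at 2-fold were recovered, and 7.73% of calls were false. The same fold of FPKM is smaller on that scale for low genes, so their recovery was not measured. In the data 58.6% of genes were called. These shares depend on how many genes change, so they may not carry over to the data. Coordinates come from GENCODE 29. Members and lists were chosen with earlier results of these data known. The text names the members, close relatives, overlapping genes and up to 4 called genes per list, and says where a gene was added later.

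Replicate numbers 2 and 3 occur in both groups, but deviations of same-numbered libraries did not correlate (r = 0.00474), so no block entered the model.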

Additional observations from a re-analysis of the deposited data

How the results depend on the processing

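The 9 genes kept their direction under 14 alternatives: pseudocounts of 0.1 and 0.5, no filter or a mean of at least 5 FPKM, median-ratio, quantile and non-mitochondrial scaling, no variance trend, robust estimation, a replicate block and each library left out. ANKRD37 has no value at 5 FPKM. Of these 125 values, 118 kept their call and 7 lost it, 4 for ARNT and 3 for ANKRD37, as given above; the cause was not tested. Higher calls ranged from 5 to 7 and lower calls stayed at 2; with 1 library left out, higher calls were 5 to 6. Among the other hypoxia targets, 10 to 14 were called higher. Lower calls there were 1 in place of 2 with no filter, at 5 FPKM, with median-ratio scaling, without MT- genes, with the replicate block, and in each fit with a library left out (range 1 to 1). With the replicate block, 6582 genes were called in place of 6986, and 12 of the other targets were higher in place of 13; the pairing changed no call of the 9. Leaving out a library gave 5011 to 5952 calls, with the lone library of a group assumed to vary like the other group. The log2 change of EGLN2 turned to 0.0208 without MT- genes and ran from -0.109 to 0.0474 with a library left out. That of HIF1AN turned to 0.0048 with median-ratio scaling and 0.0262 without MT- genes, and ran from -0.0546 to 0.0137 with a library left out. That of CUL2 ran from -0.0359 to 0.0623. The share of calls that were higher was 47.0%, 50.8% with median-ratio scaling and 53.9% without MT- genes.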
